A study of Homo sapiens with 6 samples.

Results

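The 10 genes described here serve the transport of amino acids across the plasma membrane, namely SLC7A11, SLC3A2, SLC7A1, SLC7A5, SLC7A6, SLC7A8, SLC1A4, SLC1A5, SLC38A1 and SLC38A2. All are called transporters below, although SLC3A2 encodes a heavy chain to which carriers bind. They were chosen by name, and the row of each was found by its symbol among the 50868 genes in the table of the series. RNA-Seq had been performed on polyA RNA of HCT116, a human colorectal cancer cell line, after transfection with pcYY2, which overexpresses the zinc finger transcription factor YY2, or with the control plasmid pcCon. Each plasmid had 3 samples, and the labels name no other treatment or difference between the groups. The comparison of pcYY2 with pcCon asks whether the transcript of SLC7A11 is lower alone or together with those of other transporters. The share of cells that took up a plasmid is not given in the sources used here, and in such bulk samples a change in a fraction of the cells cannot be told apart from a smaller change in every cell. Nothing in the sources says that the 3 samples of a group came from separate cultures, so the p-values measure only the spread between these samples, which may be technical.

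Amino acid carriers of the SLC7 family include light chains that reach the cell surface only when bound to a heavy chain, the glycoprotein encoded by SLC3A2 (also called 4F2hc or CD98). SLC7A11 (xCT) is the light chain that imports cystine in exchange for glutamate, and the cysteine made from this cystine is used for glutathione, which protects membrane lipids from peroxidation. The other genes supply large neutral amino acids, glutamine, serine, alanine, lysine and arginine, and many of them are known targets of ATF4, the transcription factor that cells use to answer a shortage of amino acids.

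Between 15158360 and 29572882 reads per sample had been counted on genes. Transcript levels are given as FPKM, the read count of a gene scaled to its length and to the total of the sample, and log2 fold changes are those of pcYY2 relative to pcCon, so that negative values mean lower in pcYY2. A gene was called when edgeR's quasi-likelihood test gave an adjusted p of 0.05 or less over all 12015 genes whose mean over the 6 samples reached 1 FPKM. The transfected gene matched the labels in every sample, since YY2 stood at 2.22, 2.52 and 1.73 FPKM in the pcCon samples 1 to 3 and at 11.6, 11.1 and 11.0 FPKM in the pcYY2 samples 1 to 3 (log2 fold change 2.39, SE 0.137, adjusted p = 0.00107). Of the epithelial markers, EPCAM, KRT8, KRT18, KRT19 and CDH1 were expressed in all 6 samples, between 4.14 FPKM for CDH1 and 166.1 FPKM for KRT19, whereas VIL1 had at most 2 reads. KRT8 and KRT19 were called higher in pcYY2, with log2 fold changes of 0.67 and 0.60, and the part of this difference in the results on the transporters was not tested. Of the markers of other cell types, PTPRC, PECAM1 and DES had at most 83 reads in any sample, and COL1A1 had 374 to 1020 reads.

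SLC7A11 fell together with 3 of the other transporters, and its log2 fold change was the most negative of the 9 that were tested. Of the 10 genes, 9 were expressed highly enough to be tested, and 4 of these 9 were called lower in pcYY2 (SLC7A11, SLC7A5, SLC3A2 and SLC7A1), or 44.4%, where 583 of all 12015 genes tested (4.85%) were called lower and 1126 (9.37%) were called in either direction. None of the 9 was called higher by edgeR or by DESeq2, against 543 of all genes (4.52%), although at an unadjusted p under 0.05 there were 7 of the 9, of which 6 were lower and 1, SLC38A2, was higher. At that threshold 28.9% of all genes tested passed, 14.5% lower and 14.4% higher. The median log2 fold change of the 9 genes was -0.23, with 8 of the 9 below 0, and the median over all genes tested was 0.00, with 49.7% below 0. Without pcCon 1, 2 or 3 or pcYY2 3, 2 of the 9 were called lower, and the count over all genes tested then lay between 147 and 179. In 8 of the 9, the highest sample of one group lay under the lowest of the other, which 35.8% of all genes tested did too.

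**Figure D1:**
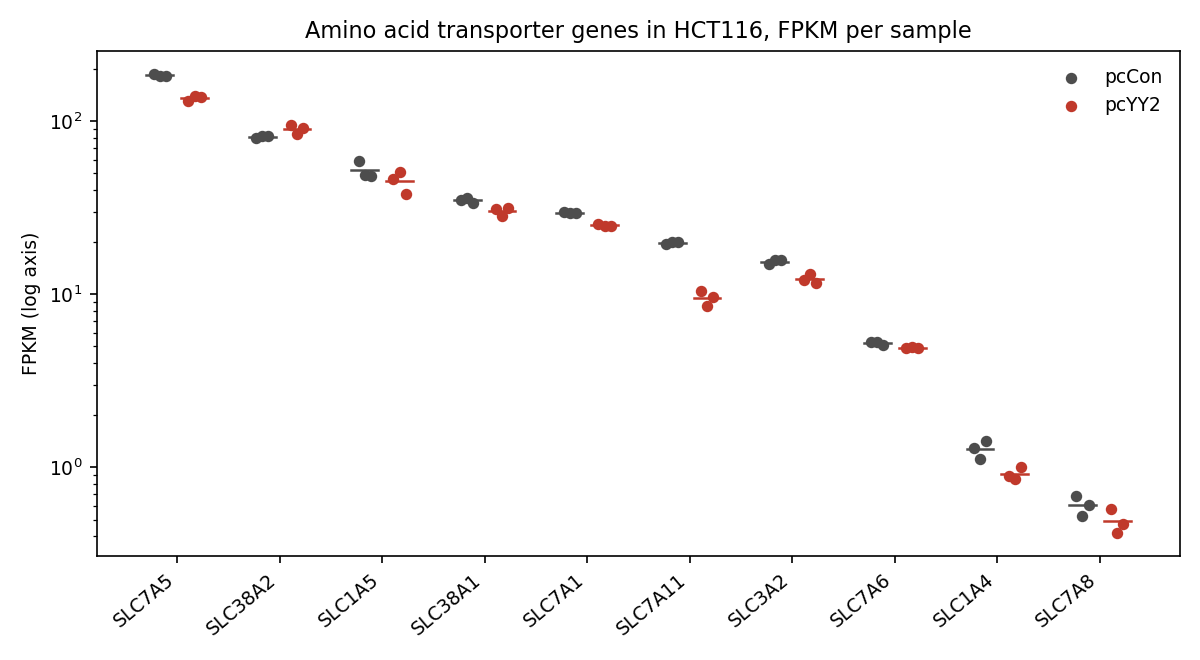
FPKM of each of the 10 transporters (log axis) in the 3 pcCon and the 3 pcYY2 samples, with a point for each sample and a line at the group mean. The points of SLC7A11 part furthest, from 19.9 to 9.55 FPKM in the mean, while the groups of SLC1A5 and SLC7A8 overlap.

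SLC7A11, the cystine importer (chr4:138164097-138242349, minus strand of GRCh38), fell to just under 0.5 of its level in pcCon. Its level was 19.6, 20 and 20.1 FPKM in the pcCon samples 1 to 3 and 10.4, 8.61 and 9.64 FPKM in the pcYY2 samples 1 to 3. Each pcYY2 sample lay far under each pcCon sample, and the pcYY2 samples were spread more widely, with a coefficient of variation of 9.51% against 1.48%. The mean fell from 19.9 ± 0.296 to 9.55 ± 0.909 FPKM (SD, n = 3 each), which is a log2 fold change of -1.05 (SE 0.0722, 95% interval -1.22 to -0.88, adjusted p = 0.0014, edgeR) and a level 0.484 times that of pcCon. The gene had between 1575 and 3607 reads in each sample. It was the most lowered of the 9 transporters tested, and among all 12015 genes it ranked 63rd by the size of its fall and 16th by its p. The antisense gene SLC7A11-AS1, which overlaps it on the plus strand, had 0 reads in all 6 samples.

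SLC3A2, the heavy chain partner of SLC7A11 (chr11:62856102-62888875, plus strand), fell less. It was at 14.9, 15.7 and 15.8 FPKM in the pcCon samples and at 12.1, 13.1 and 11.7 FPKM in the pcYY2 samples. All 3 pcYY2 samples lay under all 3 pcCon samples, although by a narrow margin. The log2 fold change was -0.32 (SE 0.0592, 95% interval -0.46 to -0.18, adjusted p = 0.0251), a level 0.804 times that of pcCon. This call was lost when pcCon 1, 2 or 3 or pcYY2 1 or 3 was left out, with adjusted p between 0.0573 and 0.0894, and held without pcYY2 2 (adjusted p = 0.026).

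SLC7A5 (LAT1), the light chain for leucine and other large neutral amino acids (chr16:87830023-87869488, minus strand), also fell. Its level was 188.4, 182.9 and 182.6 FPKM in the pcCon samples and 130.2, 139.2 and 138.8 FPKM in the pcYY2 samples, so that the groups stood well apart. The log2 fold change was -0.43 (SE 0.0402, 95% interval -0.52 to -0.33, adjusted p = 0.00376), with 10350 to 21367 reads per sample. As the level of SLC7A5 was high, its fall from 184.6 ± 3.26 to 136.1 ± 5.11 FPKM (SD, n = 3 each) was larger in FPKM than the whole level of SLC7A11. The pseudogenes SLC7A5P1 and SLC7A5P2 had at most 77 reads per sample and were not called (log2 fold changes -0.13 and 0.18, adjusted p = 0.699 and 0.72). Reads that match both SLC7A5 and these copies could have been counted on either.

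The other light chains that bind SLC3A2 did not pass the test. SLC7A6 (y+LAT2), which exchanges cationic for neutral amino acids (chr16:68264516-68301823, plus strand), was at 5.31, 5.29 and 5.11 FPKM in pcCon and at 4.90, 4.99 and 4.91 FPKM in pcYY2. These groups did not overlap, but the difference was small, with a log2 fold change of -0.07 (SE 0.046, 95% interval -0.18 to 0.04, adjusted p = 0.344). SLC7A6 shares part of its locus with SLC7A6OS on the other strand, which had 384 to 840 reads and a log2 fold change of 0.02 (adjusted p = 0.894). SLC7A8 (LAT2), a further neutral amino acid exchanger (chr14:23125295-23183674, minus strand), was at 0.682, 0.524 and 0.603 FPKM in pcCon and at 0.577, 0.418 and 0.474 FPKM in pcYY2, under the limit of 1 FPKM for the test. Its groups overlapped, and a fit that kept genes with a mean of at least 0.1 FPKM gave a log2 fold change of -0.27 (SE 0.159, 95% interval -0.64 to 0.10, adjusted p = 0.362), so that neither no change nor a fall of the size seen for SLC7A5 lay outside the interval.

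SLC7A1 (CAT-1), which imports arginine and lysine without a heavy chain (chr13:29509410-29595688, minus strand), fell slightly but evenly. It was at 29.9, 29.6 and 29.6 FPKM in the pcCon samples and at 25.6, 25.0 and 24.8 FPKM in the pcYY2 samples. The samples of each group lay close together and apart from those of the other, with a log2 fold change of -0.23 (SE 0.0388, 95% interval -0.32 to -0.14, adjusted p = 0.02), or a level 14.6% lower. Leaving out pcCon 1, 2 or 3 or pcYY2 3 ended the call (adjusted p between 0.0659 and 0.0786).

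SLC1A4 and SLC1A5, the exchangers ASCT1 and ASCT2 for small neutral amino acids and glutamine, were not called. SLC1A4 (chr2:64988477-65023865, plus strand) was at 1.30, 1.12 and 1.43 FPKM in pcCon and at 0.889, 0.858 and 1.01 FPKM in pcYY2. The groups did not overlap, and the estimate of -0.47 (SE 0.126, 95% interval -0.77 to -0.17, adjusted p = 0.0613) was close to that of SLC7A5, with 146 to 272 reads per sample. SLC1A5 (chr19:46774883-46788594, minus strand) was at 59.3, 48.8 and 48.4 FPKM in pcCon and at 46.3, 51.0 and 37.9 FPKM in pcYY2. The sample pcYY2 2 lay above 2 of the 3 pcCon samples, and the log2 fold change was -0.20 (SE 0.126, adjusted p = 0.351). This estimate rested on single samples, since it was -0.10 without pcCon 1, -0.08 without pcYY2 3 and -0.30 without pcYY2 2, and it was not called in any of these fits.

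SLC38A1 and SLC38A2, the sodium-coupled carriers SNAT1 and SNAT2 that load cells with glutamine and alanine, are neighbours on chromosome 12 and had estimates of opposite sign. SLC38A1 (chr12:46183063-46270017, minus strand) was at 35.3, 36.2 and 33.9 FPKM in pcCon and at 31.2, 28.2 and 31.5 FPKM in pcYY2, without overlap (log2 fold change -0.20, SE 0.0518, adjusted p = 0.0561). SLC38A2 (chr12:46358189-46372867, minus strand) was at 80.3, 82.4 and 82.1 FPKM in pcCon and at 95.3, 84.2 and 90.9 FPKM in pcYY2. Every pcYY2 sample of SLC38A2 was above every pcCon sample, but pcYY2 2 only just, and the log2 fold change was 0.16 (SE 0.0463, 95% interval 0.05 to 0.27, adjusted p = 0.0761). Neither gene passed the test with all 6 samples, but SLC38A1 was called by DESeq2 (adjusted p = 0.0444) and with upper quartile scaling (adjusted p = 0.0423), and SLC38A2 without pcYY2 2 (log2 fold change 0.20, adjusted p = 0.036).

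The ratio of SLC7A11 to each of the other transporters within a sample was then compared between the groups. For its partner SLC3A2, the log2 ratio of the FPKM values was 0.39, 0.35 and 0.35 in the pcCon samples and -0.22, -0.61 and -0.27 in the pcYY2 samples. SLC7A11 thus stood above SLC3A2 in FPKM in every pcCon sample and under it in every pcYY2 sample, and the ratio in pcYY2 was 0.602 times that in pcCon. The crossing, but not the change of the ratio, depends on the length by which reads are divided. Counted per kb of the canonical transcript, SLC3A2 lay above SLC7A11 in both groups, with means of 120.6 against 20.4 in pcCon and 95.9 against 9.77 in pcYY2. Against SLC7A5 the mean log2 ratio went from -3.21 ± 0.0468 to -3.84 ± 0.187 (SD, n = 3 each), a ratio 0.649 times that of pcCon. The difference in the log2 ratio was smallest against SLC1A4 (-0.58) and largest against SLC38A2 (-1.21). In all 9 comparisons the ratio was lower in each pcYY2 sample than in each pcCon sample. The exact two-sided permutation test gave p = 0.1 for each, adjusted p = 0.1 over the 9, which is the smallest p that 3 samples against 3 allow, so none could reach 0.05. All 9 ratios share the values of SLC7A11 and are therefore not independent.

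In FPKM, SLC7A11 stood sixth of the 10 transporters in pcCon, after SLC7A5 (184.6 ± 3.26), SLC38A2 (81.6 ± 1.13), SLC1A5 (52.1 ± 6.17), SLC38A1 (35.1 ± 1.12) and SLC7A1 (29.7 ± 0.196), and before SLC3A2 (15.5 ± 0.466), SLC7A6 (5.24 ± 0.107), SLC1A4 (1.28 ± 0.155) and SLC7A8 (0.603 ± 0.0793; all FPKM, SD, n = 3). No neighbours in this order overlapped. In pcYY2 the order was the same except that SLC3A2 (12.3 ± 0.746 FPKM) lay above SLC7A11 (9.55 ± 0.909 FPKM), again without overlap between neighbours. The order depends on the length by which reads are divided, since the length within the FPKM values of SLC3A2 was 14.7 kb and its canonical transcript in GENCODE 44 is 1.89 kb long, whereas those of SLC7A11 were 9.87 and 9.64 kb. CPM (counts scaled to the library total) per kb of the canonical transcript placed SLC3A2 at rank 3 in pcCon (120.6 ± 3.63) and SLC7A11 at rank 7 (20.4 ± 0.302). On that scale the heavy chain was above SLC7A11 in both groups, and SLC7A11 lay under SLC7A6 in pcYY2 (9.77 ± 0.93 against 15.3 ± 0.15). The neighbours SLC1A4 and SLC7A8 overlapped in both groups on the canonical scale, as did SLC3A2 and SLC1A5 in pcYY2.

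SLC7A11 is 1 of 6 light chains that share SLC3A2 as heavy chain, with SLC7A5, SLC7A6, SLC7A7, SLC7A8 and SLC7A10. Its share of their summed FPKM was 9.16%, 9.6% and 9.67% in the pcCon samples and 7.13%, 5.62% and 6.27% in the pcYY2 samples. Thus the share was lower in every pcYY2 sample, with means of 9.47% ± 0.277 and 6.34% ± 0.76 (SD, n = 3 each, exact permutation p = 0.1). The share of SLC7A6 was higher in every pcYY2 sample, with means of 2.49% ± 0.0396 in pcCon and 3.27% ± 0.0807 in pcYY2 (exact permutation p = 0.1). Its own level was not higher, at 5.24 ± 0.107 FPKM in pcCon and 4.93 ± 0.0483 FPKM in pcYY2. The levels of SLC7A5 and SLC7A11, which enter the same sum, were lower in pcYY2. SLC7A5 held most of the sum, with 87.7% ± 0.256 in pcCon and 90.1% ± 0.894 in pcYY2, but counted per kb of the canonical transcript its shares were 84.3% ± 0.182 and 85.1% ± 1.05 (exact permutation p = 0.4). SLC7A7 and SLC7A10 had at most 9 reads in any sample.

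The promoters of these genes were searched for 3 short motifs, in the RefSeq window of 250 bases before to 50 bases after each transcript start (GRCh38.p14). An entry was found for 9 of the 10 genes, with 18 promoters, and that of SLC7A11 was not among them. The C/EBP-ATF element, to which ATF4 binds in known targets, was searched as TGATGNAAN on both strands. It was present for 5 of the 9 genes, in 1 promoter each, whereas 4.45% of all 27305 genes and 1 of 43 other amino acid transporters (SLC1A3) had it. Of the known ATF4 targets listed below, 19 had an entry, and 5 of these 19 had the element too. The 9 transporters had 2.0 promoters each in the table against 1.29 over all genes, which gives more letters to match. By promoter, 5 of their 18 held the element, against 3.61% of all 35116 promoters. The 5 windows are shown because 2 of these genes were called lower and the other 3 were not. Each is written on the strand of its gene with the match in capitals, which is the reverse complement of the letters searched for SLC1A4 and SLC3A2. Bases are counted from the transcript start of the promoter that holds the match. For SLC3A2, SLC1A4, SLC38A1 and SLC1A5 that start lies inside the gene bounds given above.
SLC3A2, chr11:62881725-62881748, plus strand, match from base 37 after the start: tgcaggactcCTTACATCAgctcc
SLC7A1, chr13:29595663-29595691, minus strand, match from base 8 after the start: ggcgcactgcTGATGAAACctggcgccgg
SLC1A4, chr2:64989381-64989409, plus strand, match from base -8: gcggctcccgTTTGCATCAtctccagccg
SLC38A1, chr12:46266502-46266530, minus strand, match from base -4: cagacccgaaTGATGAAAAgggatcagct
SLC1A5, chr19:46784893-46784921, minus strand, match from base -97: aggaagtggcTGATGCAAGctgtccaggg
The log2 fold changes beside these matches ran from -0.47 for SLC1A4 to -0.20 for SLC1A5 and SLC38A1, and SLC7A5, which was called lower, had no match in its windows. The antioxidant response element, searched as TGACNNNGC, was found for 5 of the 9 genes (SLC1A5, SLC3A2, SLC7A1, SLC7A5 and SLC7A6) and for 16.1% of all genes. For SLC7A5 it began at base -2:
SLC7A5, chr16:87869491-87869519, minus strand: gcggggttccTGACGCAGCtgcgggcggc
The core of the motif of YY proteins, searched as CCATNTT, was found for 2 of the 9 genes, SLC38A1 and SLC7A8, neither of them called, and for 18.6% of all genes. A match of letters is a description of the window and not of a bound site.

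Most other amino acid transporters did not pass the test. Of 53 further carriers listed, 11 had no read in any sample and 29 were under the filter, the former included, so that 24 were tested. Of these, 1 was called lower (4.17%, where all genes gave 4.85%) and 1 higher, and the median log2 fold change was 0.06, with 15 of 24 above 0. SLC1A1 (EAAT3), a carrier of glutamate, aspartate and cysteine, was at 5.49, 5.47 and 5.66 FPKM in pcCon and at 2.58, 2.98 and 3.33 FPKM in pcYY2. All pcYY2 samples lay far under all pcCon samples, and the fall (log2 fold change -0.89, SE 0.108, adjusted p = 0.00767) came nearest to that of SLC7A11 among the transporters called. SLC38A5 (SNAT5), a carrier of glutamine and glycine from the family of SLC38A1, was higher, at 6.33, 5.95 and 6.56 FPKM in pcCon and 7.73, 8.24 and 7.77 FPKM in pcYY2 (log2 fold change 0.35, SE 0.0656, adjusted p = 0.0251). Its groups did not overlap, but only leaving out pcYY2 1 kept the call (adjusted p = 0.0446), which was lost without pcCon 1, 2 or 3 or pcYY2 2 or 3 (adjusted p between 0.0603 and 0.0877).

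SLC6A6, the taurine transporter, had the largest estimate among the transporters and was not called; it is named after its values were seen. It was at 6.19, 1.70 and 6.14 FPKM in pcCon and at 1.90, 1.74 and 1.70 FPKM in pcYY2, so that pcCon 2 lay with the pcYY2 samples. The log2 fold change was -1.38 (SE 0.444, adjusted p = 0.094) with all samples and -1.78 (adjusted p = 0.000851) without pcCon 2. Leaving out any of the other 5 samples gave -1.43 to -1.13 with adjusted p between 0.166 and 0.223, none called. The 2 carriers with a mean of 10 FPKM or more, SLC38A10 and the mitochondrial glycine carrier SLC25A38, had log2 fold changes of -0.07 (adjusted p = 0.7) and 0.14 (adjusted p = 0.281), each with overlapping groups. None of the 4 lysosomal carriers and none of the 7 mitochondrial carriers tested was called, which in so few genes is near the 9.37% called over all genes, and their medians were 0.03 and 0.11.

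**Figure D2:**
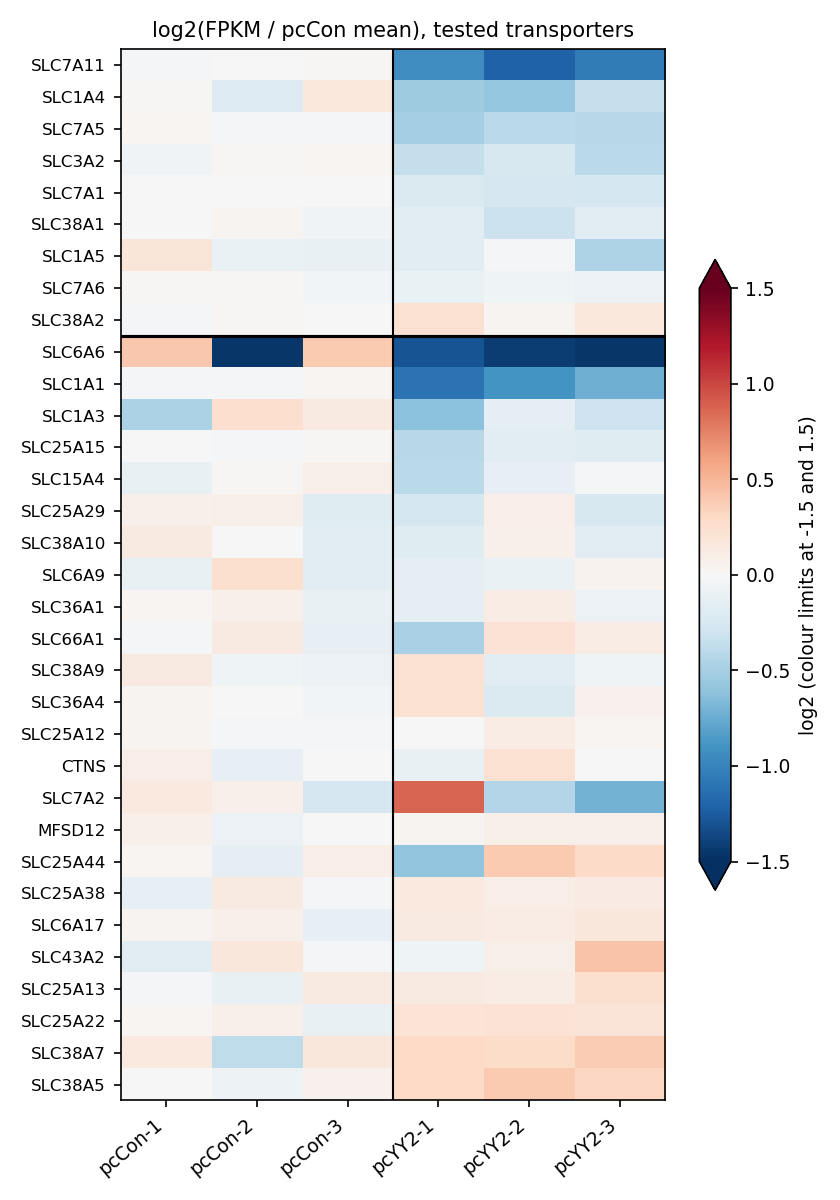
Heat map of the log2 ratio of FPKM to the mean of the pcCon samples for the 9 named transporters tested (above the line) and 24 other amino acid transporters (below it), by sample, with colours limited to -1.5 and 1.5. SLC7A11 and SLC1A1 are low in all 3 pcYY2 samples, and SLC6A6 is low in pcCon 2 as well as in all pcYY2 samples.

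Few of the genes that handle the cystine brought in by SLC7A11 passed the test. Of 21 genes of cysteine and glutathione metabolism, 18 were tested and 1 was called lower (5.56%, with 4.85% over all genes), and the median log2 fold change was -0.05. This gene was GCLC, the catalytic subunit of the enzyme that joins glutamate and cysteine in glutathione synthesis, at 7.50, 7.44 and 7.35 FPKM in pcCon and 6.00, 5.84 and 6.28 FPKM in pcYY2 (log2 fold change -0.29, SE 0.0491, adjusted p = 0.0204). Its groups stood apart, but without pcCon 1, 2 or 3 the adjusted p was 0.0658 to 0.0761. By edgeR none of the 18 was called higher, as by DESeq2, although at an unadjusted p under 0.05 there were 6 lower and 2 higher (14.5% and 14.4% over all genes). DESeq2 called 5 of the 18 lower, where it called 726 of all 12015 genes lower. Without pcYY2 1, edgeR called 3 of the 18 lower, against 393 of all 12015 genes.

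Several known targets of ATF4 that are not transporters fell as well. Of 31 listed, 27 were tested and 13 were called lower, or 48.1% (4.85% over all genes), with a median log2 fold change of -0.35 and 23 of 27 below 0. The count lower was 6 or 7 without pcCon 1, 2 or 3 or pcYY2 3, when 147 to 179 of all genes were lower. None was called higher by edgeR or DESeq2, and none was higher at an unadjusted p under 0.05, at which 20 were lower (14.5% over all genes). The called targets with the largest falls were ASNS, the asparagine synthetase (log2 fold change -1.73, SE 0.0744, adjusted p = 0.000221), the serine synthesis enzymes PHGDH (-1.19, adjusted p = 0.0017) and PSAT1 (-0.80, adjusted p = 0.00125), the mitochondrial PEP carboxykinase PCK2 (-1.03, adjusted p = 0.00125), the glycyl-tRNA synthetase GARS (-0.55, adjusted p = 0.00182), and DDIT4, an inhibitor of mTORC1 signalling (-0.44, adjusted p = 0.0239). Among the targets just named, SLC7A11 at -1.05 lay between PHGDH and PCK2, and SLC7A5 at -0.43 was nearest to DDIT4. Whether the falls of targets and transporters share a cause was not tested. The call of DDIT4 was lost without pcCon 1, 2 or 3 or pcYY2 3 (adjusted p between 0.0557 and 0.0776). Both the list of targets and that of the transporters were chosen with earlier results of these data known, and the counts describe these samples only.

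The transcripts of factors known to act on SLC7A11 were measured in the same samples. ATF4 itself was at 118.8, 122.4 and 122.1 FPKM in pcCon and at 103.3, 114.9 and 109.0 FPKM in pcYY2. The groups did not overlap, but the gene was not called (log2 fold change -0.14, SE 0.0494, adjusted p = 0.125). NFE2L2 (NRF2), the activator of antioxidant genes, varied too much within groups for a comparison, with 5.27, 14.7 and 13.8 FPKM in pcCon and 6.74, 13.4 and 3.46 FPKM in pcYY2 (log2 fold change -0.50, SE 0.543, adjusted p = 0.586). KEAP1, which targets NRF2 for degradation, was called higher, at 10, 10.9 and 11.0 FPKM in pcCon and 13.3, 14.9 and 14.1 FPKM in pcYY2 (log2 fold change 0.42, SE 0.0665, adjusted p = 0.0158). The call of KEAP1 was lost without pcCon 1 or 2 or pcYY2 3 (adjusted p between 0.0537 and 0.0566). For BACH1, a repressor at NRF2 sites, the log2 fold change was 0.04 and the adjusted p was 0.789. YY1, the paralog of YY2, was at 14.2, 12.7 and 14.6 FPKM in pcCon and at 16.2, 13.6 and 16.4 FPKM in pcYY2, with overlapping groups (log2 fold change 0.17, SE 0.0886, adjusted p = 0.26).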

How the data were processed

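RNA-Seq of HCT116 cells with 3 pcCon and 3 pcYY2 samples was used, grouped by the sample titles. The authors mapped filtered reads to GRCh38 with Tophat and computed FPKM with Cufflinks, and the submitters' processing notes also name Bowtie2 and HTSeq, without versions. The deposited table holds read counts per gene as whole numbers without normalization. The FPKM values deposited beside them were checked for genes well covered in every sample. There they equal the count divided by a gene length and by the library total, within 0.00191%. Whether the counting used the strand is not given in the sources used here. The authors' Cuffdiff output was not used here. All columns of values were assigned to a sample.

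Counts were tested with edgeR 4.0.16 in R 4.3.3 (quasi-likelihood test, TMM factors 0.9892 to 1.007) for all genes that averaged 1 FPKM or more, with Benjamini-Hochberg adjustment. SE was taken as the absolute log2 fold change over the root of the F statistic. The script was tested on simulated counts. A floor of 3 counts corresponds to 0.101 to 0.198 CPM and covers counting error only. Ratios and shares were tested by exact two-sided permutation of the samples. Canonical transcript lengths came from GENCODE 44 and promoters from RefSeq. Within groups, log2 CPM correlated across genes at 0.986 to 0.988.

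The transporters and gene lists were chosen with earlier results of these data known. Named by rule were the 10 transporters, every called gene of the other transporters and those with a mean of at least 10 FPKM, up to 6 called genes of each other list by size, the regulators, and antisense genes or pseudogenes of the 10. Alternatives were a filter at 0.1 FPKM, no filter, upper quartile and RLE scaling, DESeq2 1.42.0, limma 3.58.1 on log2(FPKM + 1) or log2(FPKM + 0.1), the replicate number as a block, and leaving out each sample.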

Additional observations from a re-analysis of the deposited data

How the results depend on the processing

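SLC7A11 and SLC7A5 were called lower in all 14 alternatives, and none of the called genes recomputed under the alternatives changed sign; KRT8, KRT19 and the solute carriers other than amino acid transporters were not recomputed. With the replicate number as a block, which leaves fewer degrees of freedom, 50 genes were called lower and 51 higher of all tested. Under the block, 2 of the 9 transporters were lower, 0 of the other transporters were lower and 0 higher, 0 cystine and glutathione genes and 6 ATF4 targets were lower, and SLC3A2 (-0.32, adjusted p = 0.0742) and SLC7A1 (-0.23, adjusted p = 0.0815) were not called. Over all genes tested, samples with the same number did not deviate together (correlations -0.0211, -0.0116 and 0.00931), and no sample correlated best with its own number. These correlations gave no sign of a pairing by number, but a pairing that acts on part of the genes was not tested. DESeq2 called 726 of all genes tested lower, against 583 in the main fit. It called 5 cystine and glutathione genes lower and SLC38A1 lower (-0.20). Upper quartile scaling also called SLC38A1 lower (-0.22), and the cause was not tested. Leaving out 1 sample, which leaves fewer samples, gave 147 to 393 genes lower and 138 to 412 higher, 2 to 4 of the transporters lower and 0 to 1 higher, 1 to 2 other transporters lower and 0 to 1 higher, 0 to 3 cystine and glutathione genes lower and 6 to 11 ATF4 targets lower. The log2 fold changes then ran from -1.11 to -0.98 for SLC7A11, -0.37 to -0.27 for SLC3A2, -0.24 to -0.21 for SLC7A1 and 0.12 to 0.20 for SLC38A2. SLC7A8 could be fitted only with the lower filter or none. The lowest counts were those of SLC1A4 and SLC7A8, at most 272 and 208 reads per sample; whether depth limits their calls was not tested.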

Other observations

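The solute carriers as a superfamily, a group chosen after the values were seen, showed both directions. Of 189 SLC genes tested, 16 were called lower (8.47%, with 4.85% over all genes). Only 5 of the 189 were called higher, where 4.52% of all genes were, and the median log2 fold change was -0.06. The 189 overlap with the amino acid transporters above. SLC7A11, SLC7A5, SLC3A2, SLC7A1 and SLC1A1 are among the 16 that were lower, and SLC38A5 is among the 5 that were higher. SLC7A11 had the smallest p of the 189 and, after SLC6A6, which was not called, the lowest log2 fold change. Among those lower were carriers of other substrates, such as SLC2A1 (GLUT1), the glucose transporter, at 29.4, 41.1 and 43.7 FPKM in pcCon and 21.4, 22.7 and 27.5 FPKM in pcYY2 (log2 fold change -0.66, SE 0.161, adjusted p = 0.0497), and the sodium, potassium and chloride cotransporter SLC12A2 (-0.34, adjusted p = 0.00951). The 5 that were higher included SLC35E1, at 3.36, 3.05 and 3.10 FPKM in pcCon and 5.05, 5.20 and 4.98 FPKM in pcYY2 (log2 fold change 0.69, SE 0.0582, adjusted p = 0.00234), the zinc transporter SLC39A7 (0.44, adjusted p = 0.0077) and the mitochondrial citrate carrier SLC25A1 (0.41, adjusted p = 0.00918). The groups of SLC2A1 and SLC35E1 did not overlap.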
